A study of Mus musculus with 2 samples.

Results

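The CC chemokine genes of the mouse liver described here were Ccl2, Ccl3, Ccl4, Ccl5, Ccl6, Ccl7, Ccl9, Ccl11, Ccl19 and Ccl21a, which are 10 of the 30406 genes counted in both libraries. They are part of a gene family and were chosen by name, not by a rule on their values, with earlier results of these data known. All 10 were found by their Ensembl identifiers. The gene Ccl4 is not to be confused with the toxin carbon tetrachloride, which is written CCl4. Liver cells were profiled by single-cell RNA sequencing in 1 library from healthy mice and 1 library from CCl4-injured mice, all of the genotype Col1a2-CreER: Rosa26-tdTomato, in which a recombinase under the Col1a2 promoter can mark mesenchymal cells with a red fluorescent protein. Per the study's methods these were young adults of a C57BL/6 background, and the injured mice received repeated injections of CCl4 in oil, a toxin activated in hepatocytes, over a chronic course. Livers were digested with pronase and collagenase and cells were enriched on a Nycodenz gradient. The study's methods add a depletion of CD45-positive cells, most of which are immune cells, whereas the labels speak of whole liver cells. How complete this depletion was in each library was not tested, and the number of mice behind each library is not given in the sources used here.

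CC chemokines are small secreted proteins that guide leukocytes by binding G protein-coupled receptors, and they are named after a pair of adjacent cysteines. The inflammatory members are switched on in stromal, endothelial and immune cells of damaged tissue and recruit monocytes, neutrophils, T cells and eosinophils. The homeostatic members, such as Ccl19 and Ccl21a, bind Ccr7 and guide dendritic cells and lymphocytes in lymphoid tissue and lymphatic vessels. In the liver, Ccl2 is known for drawing Ccr2-positive monocytes into the injured tissue, where they give rise to macrophages.

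After filtering, 5602 healthy cells with 46083664 UMIs (molecular tags that count captured RNA molecules) and 7314 CCl4 cells with 87529820 UMIs were kept. The median cell held 6791.5 UMIs in the healthy and 11873 in the CCl4 library, and 8 cell barcodes occurred in both. Levels are given as CPM, the UMIs of a gene for each unit of 1000000 UMIs in the group of cells, with 95% intervals in brackets, which cover counting error only. With 1 library per condition no difference has a replicate check, no test was made, and injury, library and software version cannot be told apart. Classes of cells were named from marker genes in clusters built without the CC and CXC chemokines, the CC chemokine receptors and the atypical receptors. Receptors of other chemokine families were not left out, and some of the markers were such receptors. The healthy library held 3546 endothelial-like, 1255 cholangiocyte-like, 326 hepatocyte-like, 235 mesothelial-like and 20 mesenchymal-like cells, and the CCl4 library held 632, 23, 0, 855 and 2915 cells of these classes. Immune-like cells numbered 17 (0.303%) in the healthy and 499 (6.82%) in the CCl4 library, the latter with 178 macrophage and monocyte-like, 106 T and NK-like, 71 B and plasma-like, 69 neutrophil-like, 60 plasmacytoid dendritic-like and 15 mast and basophil-like cells. The other 2390 CCl4 cells lay in unnamed clusters, which are called by their leading genes. Some of these had markers of a class but stayed unnamed for their low UMI counts, among them 333 cells with hepatocyte markers.

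The 10 genes together held 2623 UMIs in the healthy library (56.9 CPM) and 45296 UMIs in the CCl4 library (517 CPM). In the healthy library 5.27% of all cells had a UMI of at least 1 member, compared with 60.7% in the CCl4 library. Endothelial-like cells held 65.5% of the healthy member UMIs, most of them Ccl21a, and the 17 immune-like cells held 23.9% [22.2, 25.5]. In the CCl4 library the immune-like cells held 20.1% [19.8, 20.5]. The largest CCl4 sources outside the immune-like cells were the unnamed cluster led by Serpinb2 and Enpp2 with 35.2%, mesenchymal-like cells with 26.7% and mesothelial-like cells with 10.9%. The 15 mast and basophil-like cells alone held 6.58%. Ccl2, Ccl7 and Ccl11 were carried by the Serpinb2 and Enpp2 cluster and mesenchymal-like cells, and Ccl2 and Ccl7 also by mesothelial-like cells. Ccl19 was carried mainly by mesenchymal-like cells. Ccl3, Ccl4, Ccl5, Ccl6 and Ccl9 had their highest CPM in an immune-like class of the CCl4 library.

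**Figure D1:**
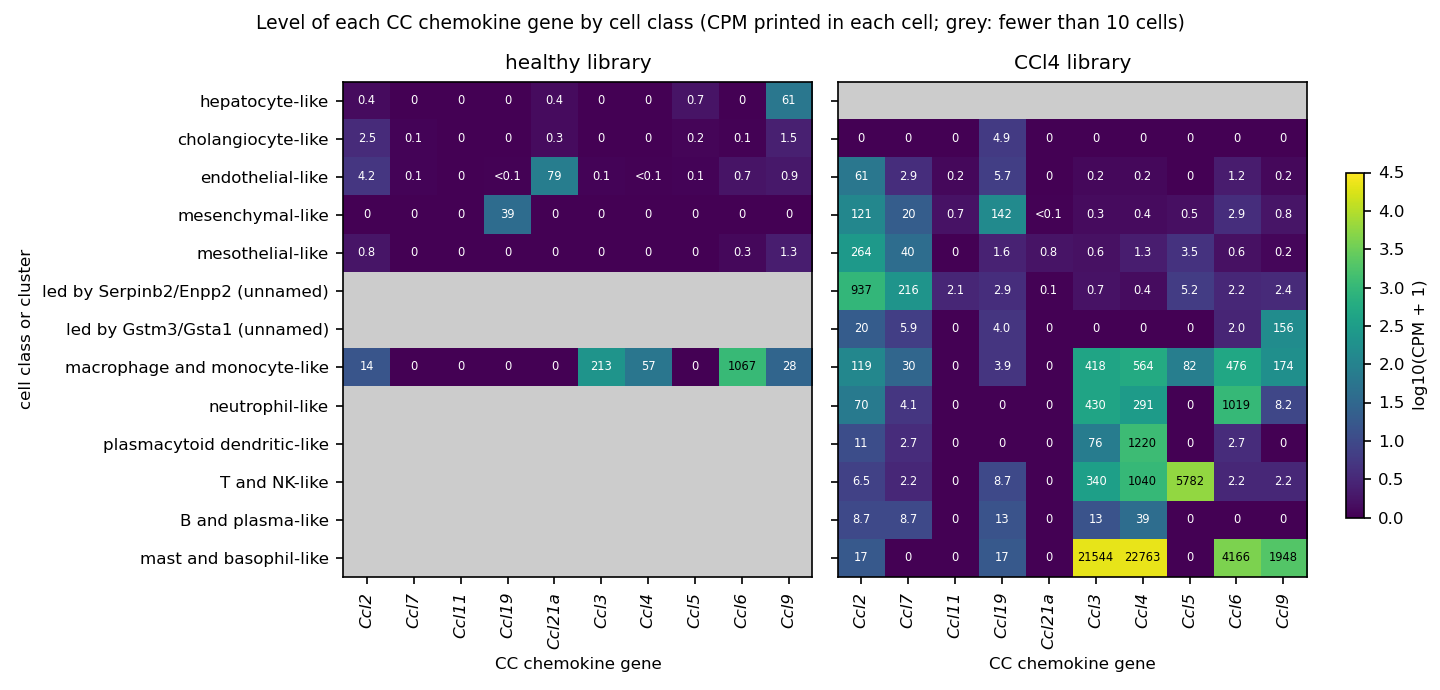
Level of each of the 10 CC chemokine genes in each cell class or cluster, with 1 panel per library, colour on the scale of log10(CPM + 1), the CPM printed in each field and grey where a library had fewer than 10 cells. In the CCl4 library Ccl2 and Ccl7 were highest in the cluster led by Serpinb2 and Enpp2 (937 and 216 CPM), Ccl19 in mesenchymal-like cells (142 CPM), Ccl5 in T and NK-like cells (5782 CPM), and Ccl3, Ccl4, Ccl6 and Ccl9 in mast and basophil-like cells.

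**Figure D2:**
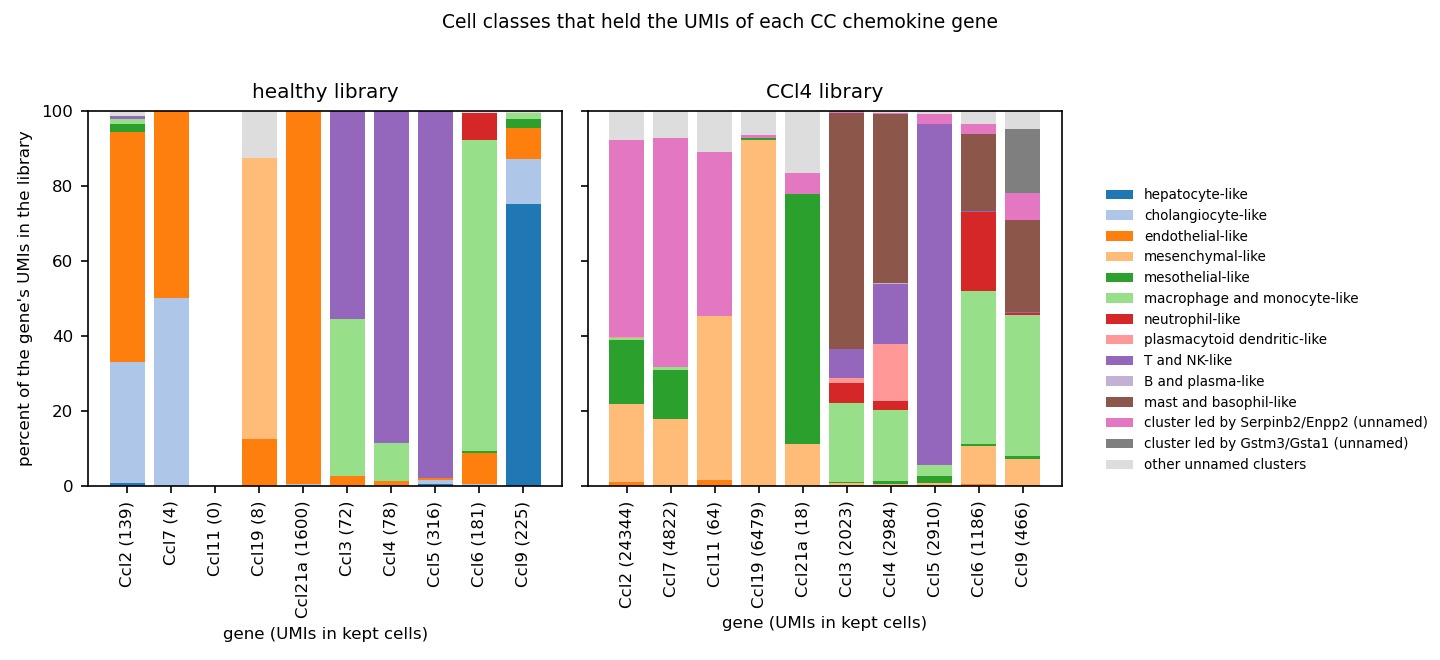
Percent of each gene's UMIs (vertical axis) that came from each class of cells, as stacked bars for the 10 genes in both libraries, with the gene's UMIs in kept cells in brackets. The bars for Ccl2 and Ccl7 in the CCl4 library are dominated by the cluster led by Serpinb2 and Enpp2 (52.6% and 61.1%), that for Ccl19 by mesenchymal-like cells (91.9%), and that for Ccl5 by T and NK-like cells (91.2%).

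Summed over all cells, 8 of the 10 genes were at least 2-fold higher in the CCl4 library, 1 was at least 2-fold lower and Ccl9 was neither. Of the 17525 genes with at least 10 UMIs over both libraries, 17.3% were at least 2-fold higher and 25.1% at least 2-fold lower. With TMM scaling, which moves log2 ratios up by 0.36, these background shares were 21.8% and 19.1%, so that the part of the calls that were higher went from 40.8% to 53.3%. The median log2 ratio was 3.69 over the members and -0.34 over all genes tested. These sums mix the level within a class with the number of cells of that class, and the classes differed widely between the libraries, so they describe the libraries and not a change within a cell type.

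The size of the ratio differed widely among the members. Ccl7 went from 4 to 4822 UMIs, a ratio of 635 [248, 2330], and Ccl19 from 8 to 6479 UMIs, a ratio of 426 [216, 988]. Ccl2 went from 139 to 24344 UMIs, or from 3.02 to 278 CPM, a ratio of 92.2 [78.1, 110]. These 3 genes had the highest ratios, and the mesenchymal-like, mesothelial-like and Serpinb2 and Enpp2 cells held most of their CCl4 UMIs. Ccl4 had 78 healthy and 2984 CCl4 UMIs, a ratio of 20.1 [16.1, 25.6]. Ccl3 had 72 and 2023 UMIs, a ratio of 14.8 [11.7, 19.0]. Ccl5 (316 and 2910 UMIs) and Ccl6 (181 and 1186 UMIs) lay lower, with ratios of 4.85 [4.32, 5.46] and 3.45 [2.95, 4.06]. Ccl11 had 0 healthy and 64 CCl4 UMIs and was at least 11.2-fold higher. Ccl9, with 225 and 466 UMIs, had a ratio of 1.09 [0.928, 1.28], an interval that includes equal levels. These ratios depended on how cells were weighted. With every cell weighing the same, the log2 ratio went from 3.89 to 5.86 for Ccl3, from 4.33 to 6.18 for Ccl4, from 2.28 to 4.27 for Ccl5 and from 1.79 to 3.30 for Ccl6, but from 6.53 to 5.89 for Ccl2 and from 9.31 to 8.47 for Ccl7. Ccl9 went from 0.12 to 1.39 on that scale, which is past 2-fold, so that 9 members were then higher, and it stood at 0.87 with a mitochondrial limit of 10%. Ccl21a ran the other way, from 1600 to 18 UMIs, a ratio of 0.00592 [0.0035, 0.00939] that depended on the removal of doublets, as described with the gene.

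**Figure D3:**
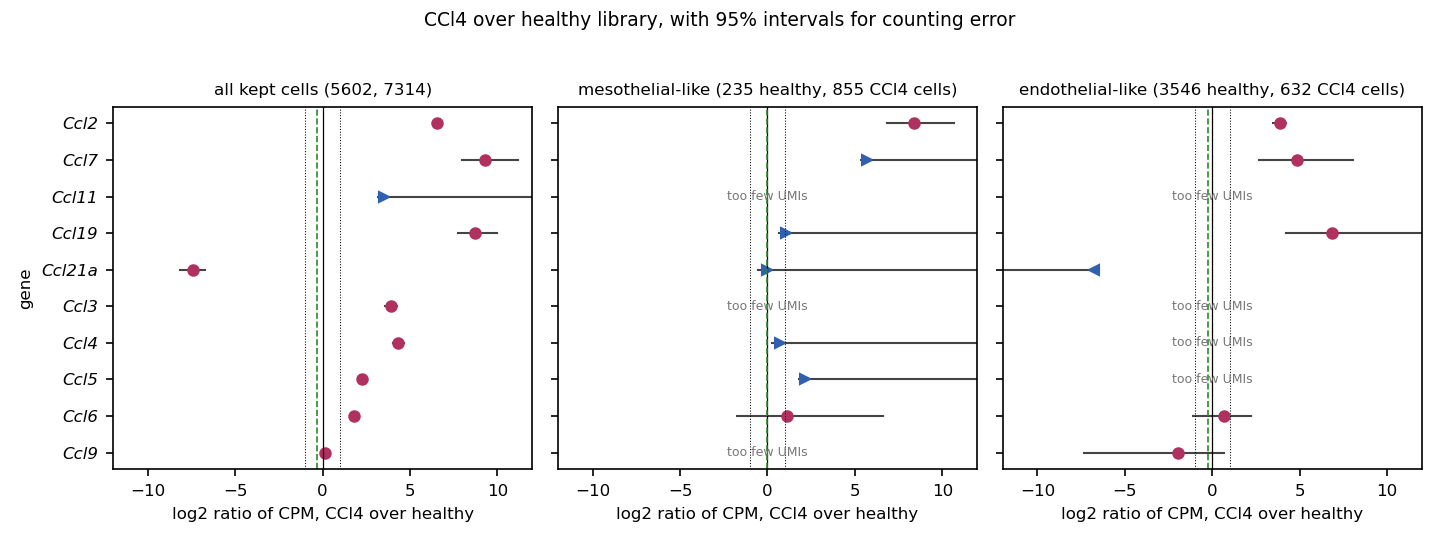
Log2 ratio of CPM, CCl4 over healthy, for each CC chemokine in all cells, mesothelial-like cells and endothelial-like cells, with exact 95% intervals for counting error, triangles for bounds where a library had 0 UMIs, dotted lines at 2-fold and a dashed line at the median of all genes tested. Over all cells 8 genes lie to the right of the upper 2-fold line, Ccl9 lies near 0 and Ccl21a lies far to the left.

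Ccl2 and Ccl7 encode monocyte chemoattractants that bind Ccr2, and Ccl11 encodes eotaxin, which attracts eosinophils through Ccr3. The genes are neighbours on chromosome 11 of build GRCm38.p6, with positions from RefSeq: Ccl2 at chr11:82035577-82037452, Ccl7 at chr11:82045712-82047525 and Ccl11 at chr11:82057832-82062955, with 8259 bases between Ccl2 and Ccl7 and 10306 between Ccl7 and Ccl11. In the CCl4 library a single cluster of 665 cells held 52.6% of the Ccl2, 61.1% of the Ccl7 and 43.8% of the Ccl11 UMIs. It was led by Serpinb2 and Enpp2, held no healthy cell and could not be named by the marker rule. Its summed mesenchymal marker level was 14624 CPM, compared with 20166 CPM in the mesenchymal-like cluster led by Dpep1 and Thbs4 and 6108 CPM in the mesothelial-like cluster led by Prg4 and Adra2a. Its mesothelial markers summed to 1410 CPM with 10 of 10 detected, compared with 4358 CPM in the Prg4 and Adra2a cluster and 35.6 CPM in the mesenchymal-like cluster led by Bco1 and Pi15. No class had at least 3 markers that met the rule in this cluster. The mesenchymal-like cluster set beside it differed between the lists, and the other mesenchymal-like clusters are not set beside them here. These sums therefore do not place it between the classes.

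In that cluster Ccl2 stood at 937 CPM [921, 953], with 12798 UMIs, and was found in 73.5% of the cells. The highest cell held 240. Mesothelial-like cells followed at 264 CPM [256, 272] with 56.3% of cells. Mesenchymal-like cells stood at 121 CPM [118, 125] with 26.0% of cells, macrophage and monocyte-like cells at 119 CPM, and endothelial-like cells at 60.8 CPM with 14.2%. The levels of mesenchymal-like, macrophage and monocyte-like and neutrophil-like cells, in that order, could not be told apart from their neighbours in the order. In T and NK-like cells, which should lack the gene, Ccl2 stood at 6.54 CPM [1.35, 19.1] with 1.89% of cells. Because the median cell held 20289 UMIs in the Serpinb2 and Enpp2 cluster and 4122.5 in T and NK-like cells, each cell was also thinned to 2000 UMIs. Ccl2 was then found in 49.8% of that cluster's cells, 24.2% of mesothelial-like, 11.2% of mesenchymal-like and 0.594% of T and NK-like cells, in the same order as the unthinned shares.

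Ccl7 followed the same cells at lower levels. It stood at 216 CPM [208, 224] in the Serpinb2 and Enpp2 cluster, where 52.6% of cells (22.2% after thinning) had a UMI. Mesothelial-like cells stood at 40.0 CPM with 24.0% of cells (5.85% after thinning) and mesenchymal-like cells at 20.3 CPM with 9.67%. T and NK-like cells stood at 2.18 CPM with 0.943% of cells. Of the cells with a Ccl2 UMI, 316 of 489 (64.6%) in the Serpinb2 and Enpp2 cluster also had one of Ccl7, as did 171 of 481 (35.6%) among mesothelial-like and 172 of 758 (22.7%) among mesenchymal-like cells. The 13 immediate early genes, which tissue digestion can induce, summed to 9462 CPM in that cluster, 10460 CPM in mesothelial-like and 7689 CPM in mesenchymal-like cells of the CCl4 library, and their part in the Ccl2 and Ccl7 levels was not tested.

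The healthy library held little of these genes. Ccl2 had 139 UMIs in 82 cells, at 4.22 CPM in endothelial-like cells (1.72% of cells) and 2.51 CPM in cholangiocyte-like cells, where 27 of 45 UMIs came from 1 cell. Hepatocyte-like cells, with a median of 2915 UMIs, had 1 UMI of it, in 0.307% of cells. Ccl7 had 4 UMIs in 4 cells. Ccl11 had a UMI in 0 of 5602 healthy cells, which allows up to 0.0536% of cells with a UMI and does not limit the share that express the gene, and had 64 UMIs in 33 CCl4 cells. Of these 64, 28 lay in the Serpinb2 and Enpp2 cluster (2.05 CPM) and 28 in mesenchymal-like cells (0.668 CPM), and the highest cell held 13. At 64.1% of its UMIs in 10 cells, Ccl11 was too sparse for an order of classes.

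Ccl19 and Ccl21a encode the ligands of Ccr7. They lie side by side on chromosome 4, at chr4:42754525-42756365 and chr4:42772860-42773991 in build GRCm38.p6, with 16494 bases between them. The 300 bases around each start (250 before and 50 after) are shown, because these neighbours were counted mainly in different classes of cells. Capitals mark matches, on either strand, to any of the motifs searched, which were the TATA box TATAAA, the GC box GGGCGG, the CAAT box CCAAT, the AP-1 motif TGANTCA, the NF-kappaB motif, and the ETS motifs CAGGAAGT and GAGGAAGT. They occurred in 13.6%, 35.7%, 37.4%, 7.81%, 0.411%, 3.33% and 3.20% of 32851 RefSeq promoters of the same length.
Ccl19 (chr4:42756316-42756615, minus strand): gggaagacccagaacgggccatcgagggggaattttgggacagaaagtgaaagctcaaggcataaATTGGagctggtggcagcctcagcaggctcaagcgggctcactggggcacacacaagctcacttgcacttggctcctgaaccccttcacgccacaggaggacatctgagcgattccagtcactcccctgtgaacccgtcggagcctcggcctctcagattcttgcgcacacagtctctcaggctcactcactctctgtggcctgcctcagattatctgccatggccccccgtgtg
Ccl21a (chr4:42773942-42774241, minus strand): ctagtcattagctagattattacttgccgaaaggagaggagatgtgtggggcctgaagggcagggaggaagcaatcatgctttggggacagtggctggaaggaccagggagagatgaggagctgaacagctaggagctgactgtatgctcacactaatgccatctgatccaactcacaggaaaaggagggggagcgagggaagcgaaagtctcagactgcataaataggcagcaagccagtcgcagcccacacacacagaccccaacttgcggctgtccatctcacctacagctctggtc
With the first base of the gene as position 0, the Ccl19 window held a CAAT box at -185 to -181, and the Ccl21a window held none of these letters. Aligned end to end, the windows were identical at 53.4% of positions. Both genes have near-identical copies in the mouse genome. A second identifier of each was listed at 0 UMIs in both libraries, as was Ccl21b, so the reads counted for Ccl19 and Ccl21a could include some of those copies.

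In the CCl4 library Ccl19 was counted mainly in mesenchymal-like cells. It stood at 142 CPM [139, 146] in mesenchymal-like cells, 74.1% of which had a UMI, and these cells held 91.9% of its 6479 UMIs. Within this class it reached 164 CPM in the cluster led by Dpep1 and Thbs4 (77.2% of cells), 127 CPM in that led by Bco1 and Pi15 (72.8%) and 100 CPM in that led by Angptl6 and Ntm (60.3%). The order ran against that of 9 hepatic stellate cell markers, which summed to 2199 CPM, 5411 CPM and 10942 CPM in these 3 clusters, while 9 portal fibroblast markers summed to 1736 CPM, 562 CPM and 93.6 CPM. The Serpinb2 and Enpp2 cluster, which led for Ccl2 and Ccl7, had Ccl19 at 2.93 CPM in 4.36% of cells. T and NK-like cells stood at 8.72 CPM with 3.77% of cells, and endothelial-like (5.75 CPM) and mesothelial-like cells (1.64 CPM) were at or below that background. After thinning, the shares were 23.1% of mesenchymal-like and 1.43% of T and NK-like cells. In the healthy library 6 of the 8 UMIs came from 4 of the 20 mesenchymal-like cells, or 38.5 CPM [14.1, 83.9], which is below the CCl4 level but rests on those 4 cells.

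Ccl21a, in contrast, was found in few healthy endothelial-like cells. Of its 1600 UMIs, 99.4% lay in that class, and 9 cells with at least 10 UMIs held 1579 of them, with 10, 14, 29, 81, 149, 152, 263, 279 and 602 UMIs. All 9 also had UMIs of the lymphatic endothelial genes Mmrn1 (238 UMIs in all), Prox1 and Flt4, 8 had Pdpn and 7 had Lyve1. None had a UMI of the mesothelial gene Msln or the leukocyte gene Ptprc. Of the 3525 healthy endothelial-like cells without a Ccl21a UMI, 0.0284% had Mmrn1, 2.50% Prox1 and 0.567% Pdpn. Flt4 and Lyve1, however, were found in 83.0% and 56.6% of those cells and do not set the 9 cells apart. The level of the gene in the 3546 endothelial-like cells thus rested on these 9 cells.

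Of 632 endothelial-like cells kept from the CCl4 library, 0 had a UMI of Ccl21a, which allows up to 0.475% of cells with a UMI. Of its 18 UMIs in all kept CCl4 cells, 11 lay in 1 mesothelial-like cell. The deposited CCl4 matrix, however, held 245 UMIs, of which 124 and 102 lay in 2 cells that were marked as doublets and removed. Both had Mmrn1, Prox1, Flt4 and Lyve1 UMIs, like the healthy cells with Ccl21a, and totals of 4158 and 5167 UMIs, which are below the library's median. Without doublet removal, endothelial-like cells had 75.7 CPM in the healthy library and 53.7 CPM in the CCl4 library, a ratio of 0.709 [0.614, 0.816], compared with at least 110-fold lower with it. The lower level within endothelial-like cells thus rested on the removal of 2 cells. The interval of 0.709 counts UMIs, most of which lay in 9 healthy and 2 CCl4 cells with at least 10 each. It therefore does not cover the spread between cells. Over all cells the ratio was 0.0778 [0.0678, 0.0891] without doublet removal, with 3670 healthy and 662 CCl4 cells in the endothelial-like class.

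**Figure D4:**
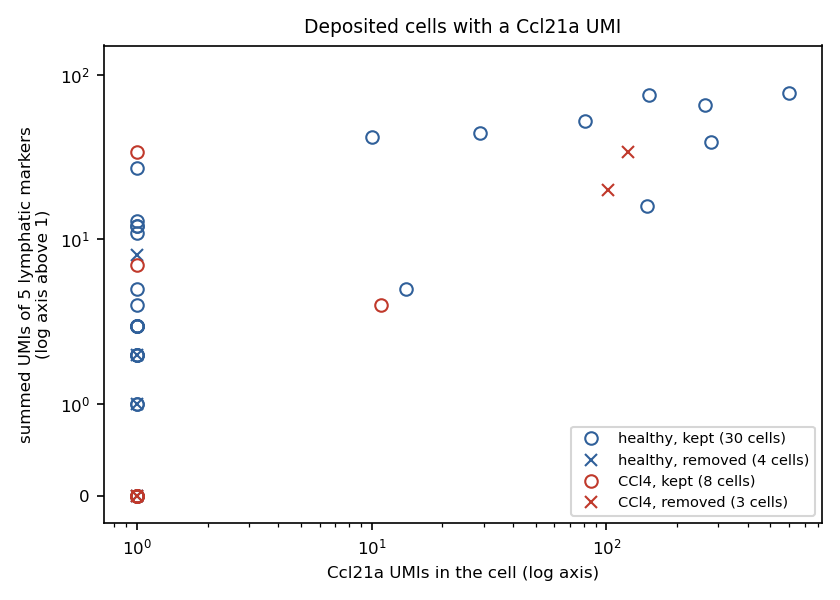
UMIs of Ccl21a (horizontal log axis) and summed UMIs of 5 lymphatic markers (vertical axis, log above 1) in each deposited cell with a Ccl21a UMI, with circles for kept and crosses for removed cells of each library. The healthy library holds 9 kept cells with at least 10 UMIs, up to 602, and the 2 highest cells of the CCl4 library, with 124 and 102 UMIs, are among those removed as doublets. The markers are Mmrn1, Prox1, Flt4, Pdpn and Klhl4, of which Flt4 was also common in endothelial-like cells without Ccl21a.

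Ccl3, Ccl4 and Ccl5 encode inflammatory chemokines known from activated macrophages, T cells and NK cells. They lie on chromosome 11, Ccl5 at chr11:83525778-83530518, Ccl3 at chr11:83647843-83649378 and Ccl4 at chr11:83648624-83664683, and the last pair overlap by 755 bases as annotated in GRCm38.p6. Whether the counting used strand is not given in the sources used here, so reads in the overlap could count for either gene. Ccl3 and Ccl4 were highest by far in the 15 mast and basophil-like cells of the CCl4 library. All 15 had UMIs of both, with 23 to 151 UMIs of Ccl3 per cell (median 68) and 6 to 244 of Ccl4 (median 56). That gave 21544 CPM of Ccl3 and 22763 CPM of Ccl4, and these cells held 62.9% and 45.0% of all UMIs of the genes. The immediate early genes summed to 35025 CPM in these cells, compared with 8257 CPM over all CCl4 cells, and their part in these levels was not tested.

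The other leukocytes carried the pair in different proportions. Macrophage and monocyte-like cells had Ccl3 at 418 CPM in 40.4% of cells and Ccl4 at 564 CPM in 35.4%. T and NK-like cells had Ccl3 at 340 CPM in 18.9% of cells and Ccl4 at 1040 CPM in 31.1%. Plasmacytoid dendritic-like cells had 75.6 CPM of Ccl3 against 1220 CPM of Ccl4, which 60.0% of them carried, and neutrophil-like cells had 430 CPM of Ccl3 against 291 CPM of Ccl4. Neutrophil-like, macrophage and monocyte-like and T and NK-like cells thus lay close together for Ccl3, whereas for Ccl4 the plasmacytoid dendritic-like and T and NK-like cells lay above the myeloid classes. Of the T and NK-like cells with a Ccl3 UMI, 17 of 20 also had Ccl4. In mesothelial-like cells, which should lack both and had a median of 17616 UMIs, 0.702% of cells had a UMI of Ccl3 (0.569 CPM) and 1.29% one of Ccl4 (1.26 CPM). Thinned to 2000 UMIs, Ccl3 was found in 38.8% of macrophage and monocyte-like and 0.122% of mesothelial-like cells. In the healthy library Ccl3 and Ccl4 each had UMIs in 8 cells. Among them 2 of 4 T and NK-like cells held 40 of 72 UMIs of Ccl3 and 69 of 78 of Ccl4, and 4 of 11 macrophage and monocyte-like cells held 30 UMIs of Ccl3.

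Ccl5 (RANTES), a product of effector T cells and NK cells, was counted almost wholly in 1 class. T and NK-like cells of the CCl4 library stood at 5782 CPM [5564, 6006], with a UMI in 76.4% of cells (79.9% after thinning), and held 91.2% of the 2910 UMIs. All 33 T and NK-like cells with Ccl4 also had Ccl5. In the healthy library the 4 T and NK-like cells all had the gene and held 309 of its 316 UMIs, or 6528 CPM [5820, 7298]. The intervals of the 2 libraries overlapped, while the number of cells in the class was 4 and 106. Mesothelial-like cells had 3.48 CPM in 1.17% of cells.

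Ccl6 and Ccl9 encode chemokines of the myeloid lineage that bind Ccr1. They are neighbours on chromosome 11, Ccl9 at chr11:83572917-83578636 and Ccl6 at chr11:83587886-83593087, with 9249 bases between them. Their start regions, from the same build and with matches to the same motifs in capitals, are shown because the genes shared macrophages but differed in neutrophils and hepatocytes.
Ccl6 (chr11:83593038-83593337, minus strand): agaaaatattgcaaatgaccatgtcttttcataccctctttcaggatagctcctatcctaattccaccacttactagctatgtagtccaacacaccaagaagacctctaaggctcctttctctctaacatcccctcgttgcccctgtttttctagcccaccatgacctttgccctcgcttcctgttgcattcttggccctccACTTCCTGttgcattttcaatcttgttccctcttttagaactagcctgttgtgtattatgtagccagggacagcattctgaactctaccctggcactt
Ccl9 (chr11:83578587-83578886, minus strand): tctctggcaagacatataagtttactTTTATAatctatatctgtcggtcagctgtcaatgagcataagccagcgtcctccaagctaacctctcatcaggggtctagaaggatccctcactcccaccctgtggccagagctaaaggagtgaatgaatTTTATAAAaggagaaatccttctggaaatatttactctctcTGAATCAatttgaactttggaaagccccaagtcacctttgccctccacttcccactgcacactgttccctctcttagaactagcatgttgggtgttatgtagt
The Ccl6 window held an ETS motif at -48 to -41. The Ccl9 window held TATA boxes at -224 to -219, at -94 to -89 and, overlapping the latter, at -92 to -87, and an AP-1 motif at -53 to -47. The windows were identical at 49.7% of aligned positions, with a longest shared run of 13 bases.

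Both genes were myeloid in the CCl4 library. Ccl6 stood at 4166 CPM in mast and basophil-like cells (14 of 15 cells), 1019 CPM in neutrophil-like cells (72.5% of cells) and 476 CPM in macrophage and monocyte-like cells (59.6%). Macrophage and monocyte-like cells held 40.7% of its UMIs. Ccl9 stood at 1948 CPM in mast and basophil-like cells (15 of 15 cells) and 174 CPM in macrophage and monocyte-like cells (34.8%), but at 8.19 CPM in neutrophil-like cells. Of cells with a Ccl6 UMI, 51 of 106 macrophage and monocyte-like and 1 of 50 neutrophil-like cells also had Ccl9, so that the neighbours parted in neutrophil-like cells. In mesothelial-like cells Ccl6 stood at 0.569 CPM (1.05% of cells) and Ccl9 at 0.190 CPM. Thinned to 2000 UMIs, Ccl6 was found in 69.9% of neutrophil-like and 51.0% of macrophage and monocyte-like cells.

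**Figure D5:**
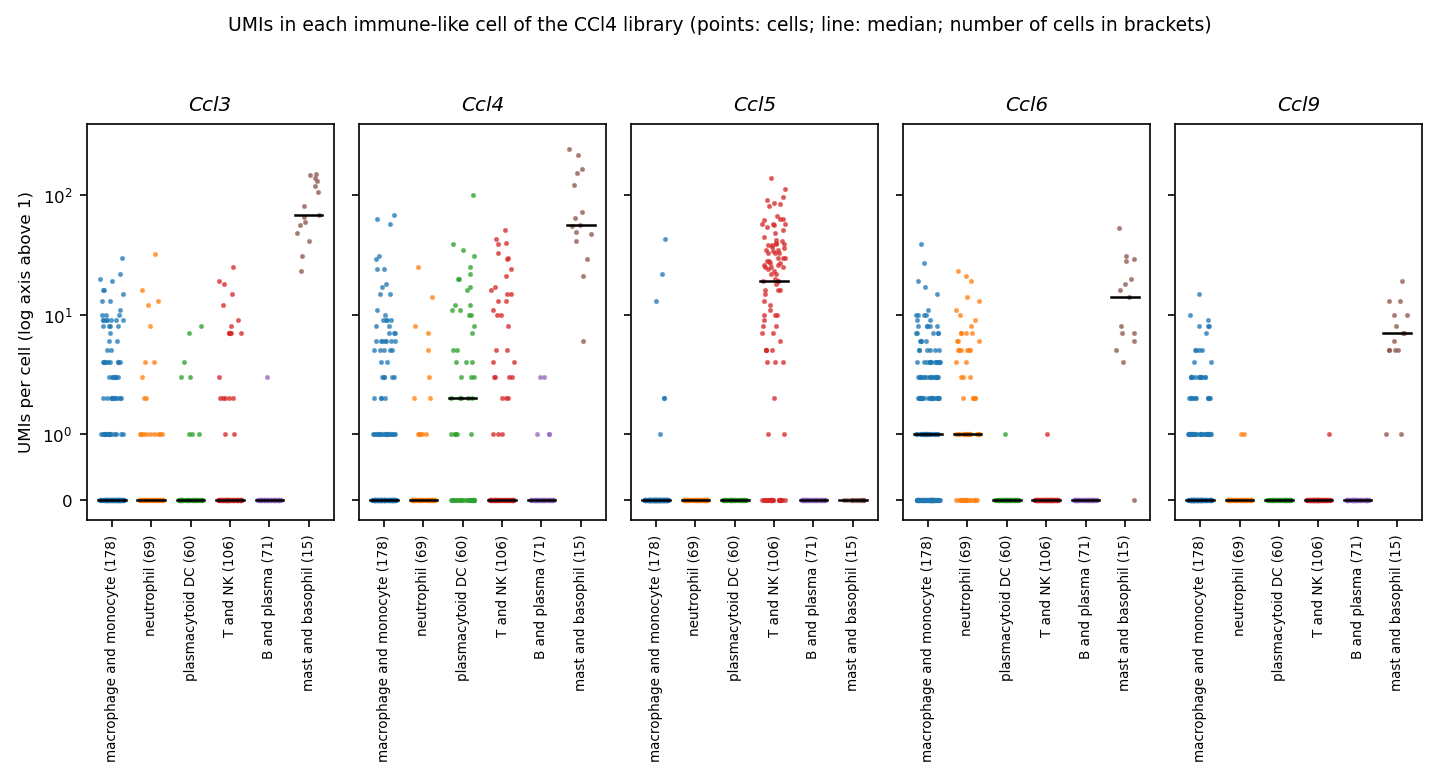
UMIs per cell (vertical axis, log above 1) of Ccl3, Ccl4, Ccl5, Ccl6 and Ccl9 in the immune-like cells of the CCl4 library, with 1 point per cell, a line at the median of each class and its number of cells in brackets. All 15 mast and basophil-like cells have UMIs of Ccl3, Ccl4 and Ccl9, and Ccl5 is carried mainly by T and NK-like cells (76.4% of cells).

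In the healthy library the genes had different sources. Ccl6 had 150 of its 181 UMIs in 10 of the 11 macrophage and monocyte-like cells, or 1067 CPM. Ccl9 had 169 of its 225 UMIs in hepatocyte-like cells, at 60.7 CPM [51.9, 70.6] with 28.5% of cells (13.6% after thinning). Within that class the level was 85.8 CPM in the cluster led by Gnmt and Bhmt (20.6% of cells) and 48.6 CPM in that led by Mup11 and Mup17 (73.5%). Cholangiocyte-like cells had 1.51 CPM and endothelial-like cells 0.943 CPM, so the hepatocyte-like level was above both beyond counting error. No hepatocyte-like cells were named in the CCl4 library. An unnamed cluster there led by Gstm3 and Gsta1, whose cells had a median of only 893 UMIs, had Ccl9 at 156 CPM in 12.9% of cells and held 17.0% of the gene's UMIs. This cluster met the marker rule for 10 of 14 hepatocyte markers and stayed unnamed for its low UMI count. Its Ccl9 level was above the 60.7 CPM of healthy hepatocyte-like cells, and whether its cells were hepatocytes was not tested. The ratio of 1.09 over all cells thus set a healthy sum that came mostly from hepatocyte-like cells against a CCl4 sum that came mostly from leukocytes.

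Mesothelial-like cells could be compared between the libraries, with 235 healthy cells, all but 1 in the cluster led by Myl7 and Prph, and 855 CCl4 cells in the cluster led by Prg4 and Adra2a. Of 7 members with at least 10 UMIs, 4 were at least 2-fold higher in the CCl4 library and 0 were lower, against 11.1% and 13.5% of 13397 genes. Apart from Ccl2, with 3, these members had 0 or 1 healthy UMIs and met the count limit almost wholly through the CCl4 cells. A gene with under 3 healthy UMIs could not be called lower, so the 0 says nothing about these members. Ccl2 had 3 healthy and 4169 CCl4 UMIs, a ratio of 338 [116, 1639]. Ccl7 went from 0 to 632 UMIs and was at least 51.2-fold higher. The log2 ratio of Ccl2, 8.40 here, was 6.66 with counts under 10 raised to 10. It was 9.50 with at least 1000 UMIs per cell and 9.52 with a mitochondrial limit of 10%, where 643 and 576 of the 665 cells of the Serpinb2 and Enpp2 cluster were themselves named mesothelial-like. The log2 bound of Ccl7, 5.68 here, was 3.94, 7.25 and 7.26 under these settings. Ccl2 and Ccl7 were the members with a clear level in this class. Ccl5 (0 and 55 UMIs, at least 4.46-fold) lay in 10 cells with up to 23 UMIs in 1 cell, and Ccl19 (0 and 26 UMIs, at least 2.11-fold) was below its level in T and NK-like cells. Markers of T and NK cells summed to 0.524 CPM in the Myl7 and Prph cluster (11 of 13 at 0) and 5.43 CPM in the Prg4 and Adra2a cluster (1 of 13 at 0), and their part in the Ccl5 count was not tested. The immediate early genes summed to 5983 CPM in the healthy and 10460 CPM in the CCl4 cells, and their part in the Ccl2 and Ccl7 ratios was not tested. Since a different cluster held the class in each library, the ratio sets those clusters side by side.

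In endothelial-like cells 6 members had at least 10 UMIs. Of these, 3 were at least 2-fold higher and 1 lower, against 7.35% and 15.9% of 13270 genes. With TMM scaling the background became 9.50% and 11.5%, and the higher part of the calls went from 31.6% to 45.3%. Ccl2 had 85 healthy and 254 CCl4 UMIs, a ratio of 14.4 [11.2, 18.7], and at 60.8 CPM its CCl4 level was above that of T and NK-like cells. Ccl7 (2 and 12 UMIs, a ratio of 29.0 [6.44, 266]) and Ccl19 (1 and 24 UMIs, a ratio of 116 [18.9, 4762]) had CCl4 levels of 2.87 and 5.75 CPM, which could not be told from those of T and NK-like cells and are read as background. Ccl21a was the lower member, with the dependence on 2 removed cells given above. Ccl6 (15 and 5 UMIs) and Ccl9 (19 and 1 UMIs) were neither. Most CCl4 cells of this class (576) lay in the cluster led by Esm1 and Kcnj2, and the healthy ones in those led by Clec4g and Adam23 (1566), Gm15675 and Hist4h4 (1147), Plppr5 and Lhx6 (395) and Ccl21a and Gja5 (350). The mesenchymal markers summed to 697 CPM in the Esm1 and Kcnj2 cluster and 39.4 CPM in that led by Clec4g and Adam23, and their part in the Ccl2 ratio was not tested. The immediate early genes summed to 9458 CPM in the healthy and 6712 CPM in the CCl4 endothelial-like cells.

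Single cells differed in how many members they carried. The median mast and basophil-like cell had UMIs of 4 of the 10 genes, with at most 5. Macrophage and monocyte-like cells had a median of 2 members and at most 7. Mesenchymal-like and mesothelial-like cells of the CCl4 library each had a median of 1, and the median endothelial-like cell had 0 in both libraries. At least 1 member was found in 81.6% of CCl4 mesenchymal-like cells and in 3.33% of healthy endothelial-like cells.

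The genes most alike each member were sought over 12 combinations of class and library with at least 50 cells, by Pearson's r of log2(CPM + 10). These points share libraries, and the r is a description. Unnamed clusters and the mast and basophil-like cells were not among the points. The largest CCl4 sources of Ccl2, Ccl7, Ccl3 and Ccl4 were therefore left out. For Ccl21a the healthy endothelial-like point stood at 79.0 CPM and the next highest at 0.759 CPM, so its r rests on that point. The gene most alike Ccl2 was Ccl7 (r = 0.869), followed by Neurl2 and Il6 (both 0.867), and those most alike Ccl7 were Slc8a1 (0.946), Il6 (0.939) and Axl (0.870). Ccl3 was most like Itgb2 (0.978), Itgal (0.975) and Myo1f (0.974), and Ccl4 most like Itgal (0.977), Vav1 (0.973) and Pik3cd (0.970). Ccl5 ran with Depdc1a (0.993), Ccsap (0.985) and Klrk1 (0.977), and Ccl6 with Igsf6 (0.997), Chil3 (0.996) and Emilin2 (0.995). The genes most alike Ccl9 were Nr1h3 (0.927), Oasl1 (0.914) and Apoc2 (0.879). Ccl19 ran with Lhx2 (0.983), and the genes of Ccl21a were Sox11 (0.994), Gm13305 (0.987) and the lymphatic gene Mmrn1 (0.985). Those of the sparse Ccl11 were Gm3892 (0.981), A830019P07Rik (0.976) and Meox2 (0.974).

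Of 13 other CC chemokines, 12 were found, 9 had at least 10 UMIs, 3 of these were at least 2-fold higher over all cells and 1 was lower, against 17.3% and 25.1% of all genes. Ccl24, an eotaxin that attracts eosinophils, went from 79 to 1797 UMIs, a ratio of 11.98 [9.56, 15.2]. Its source differed between the libraries. In the healthy library 74 of its 79 UMIs lay in 10 of 11 macrophage and monocyte-like cells (526 CPM), whereas in the CCl4 library 841 lay in the mesenchymal-like cluster led by Dpep1 and Thbs4 (45.2 CPM) and 809 in the Serpinb2 and Enpp2 cluster (59.2 CPM), with macrophage and monocyte-like cells at 40.4 CPM. Ccl17 had 1 and 75 UMIs, 70 of the latter in mesenchymal-like cells. The others past 2-fold, named after their values were seen, were Ccl12 (1 and 19 UMIs, higher) and Ccl20 (16 and 5 UMIs, lower). Ccl25 (555 and 611 UMIs) had a ratio of 0.580 and Ccl27a (1038 and 1706 UMIs) a ratio of 0.865.

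The receptors of these ligands were also counted. Of 10 CC chemokine receptors, 8 had at least 10 UMIs over all cells, 6 were at least 2-fold higher in the CCl4 library and 0 lower, against 17.3% and 25.1% of all genes. Ccr6 and Ccr7, with 2 and 1 healthy UMIs, could not be called lower. Ccr2, the receptor of Ccl2 and Ccl7, stood at 316 CPM in macrophage and monocyte-like, 246 CPM in plasmacytoid dendritic-like and 129 CPM in T and NK-like cells of the CCl4 library. Ccr1, a receptor of Ccl3, Ccl6 and Ccl9, stood at 589 CPM in neutrophil-like cells, 85.5% of which had a UMI. Ccr7, the receptor of Ccl19 and Ccl21a, stood at 222 CPM in B and plasma-like cells. The highest classes of ligand and receptor thus differed for Ccl2 with Ccr2, Ccl7 with Ccr2 and Ccl19 with Ccr7. All 5 atypical receptors, which bind chemokines without classical signalling, had at least 10 UMIs, and Ackr1, Ackr2, Ackr3 and Ackr4 were at least 2-fold lower over all cells, against the same 25.1% of all genes. Ackr4, which takes up Ccl19 and Ccl21a, went from 32.2 to 6.95 CPM in endothelial-like cells, and Ackr3 from 183 to 28.6 CPM in mesothelial-like cells, a ratio of 0.157. The healthy Ackr4 level pooled clusters that differed. It was 83.4, 38.0 and 27.8 CPM in those led by Plppr5 and Lhx6, Gm15675 and Hist4h4, and Clec4g and Adam23. These clusters held 28.7%, 16.8% and 42.1% of its healthy UMIs, and the whole class held 89.1%. Few were thus left for the cluster led by Ccl21a and Gja5. For Ackr1 and Ackr2 the level within endothelial-like cells, which held 99.0% and 98.9% of their healthy UMIs, ran against the sum over all cells. Ackr1 went from 34.2 to 47.4 CPM there, a ratio of 1.39 [1.18, 1.63], and Ackr2 from 27.3 to 41.9 CPM, a ratio of 1.54 [1.29, 1.83]. These healthy levels pooled clusters that differed. In the healthy cluster led by Clec4g and Adam23, Ackr1 stood at 47.4 and Ackr2 at 26.2 CPM. In the CCl4 cluster led by Esm1 and Kcnj2 they stood at 46.4 and 43.8 CPM. In the healthy clusters led by Plppr5 and Lhx6, Ccl21a and Gja5, and Gm15675 and Hist4h4, Ackr1 stood at 11.6, 18.7 and 26.5 CPM. Ackr2 stood at 43.9, 11.5 and 34.3 CPM in these.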

How the data were processed

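The authors deposited 1 matrix of raw UMI counts per gene and cell barcode for each library, written by Cell Ranger 3.1.0 (healthy, 31053 genes) and 6.0.1 (CCl4, 32285 genes) per the file headers. The submitters' processing notes name the builds GRCh38 and mm10 without saying which was used for which data, and the gene identifiers are those of mouse. The lowest cell total was 500 UMIs in both files.

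The 30406 genes on both lists were used, matched by identifier. Cells needed 500 UMIs, 200 genes and no more than 30% mitochondrial UMIs, which removed 418 of 6297 healthy and 659 of 8460 CCl4 cells. Scrublet in scanpy 1.11.5 then marked 277 and 487 doublets (0.8% per 1000 cells), which were removed. Both libraries were clustered together on 30 principal components of 2000 variable genes (20 neighbours, Leiden resolution 1, seed 1). CC and CXC chemokine, CC receptor and atypical receptor genes were left out. Of 30 clusters, 21 were named from marker lists, with at least 3 markers at 2-fold and 10% of cells, and 11 of 14 classes were found. A cluster with enough markers stayed unnamed if its leading genes held at least as many markers of another class. It also stayed unnamed if its UMI counts were low for its library and no leading gene was a marker of its class. Immune-like cells are all leukocyte classes together. Names can differ from those of the study.

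UMIs were summed per class and library as CPM with exact Poisson intervals, shares of cells had exact binomial (Clopper-Pearson) and ratios exact conditional binomial intervals, all at 95%. The limit for a count of 0 was 3 counts. Ratios counted as at least 2-fold with counts under 3 raised to 3, for genes with at least 10 UMIs. The ratio and its interval were checked on simulated counts. TMM factors came from edgeR 4.0.16 in R 4.3.3. Thinning used 2000 UMIs per cell and left out shallower cells, which in the CCl4 library were 33 of the Serpinb2 and Enpp2 cluster, 6 mesenchymal-like, 0 mesothelial-like, 61 macrophage and monocyte-like, 21 neutrophil-like and 9 T and NK-like cells, and 125 hepatocyte-like cells in the healthy library. The genes named were all members, other CC chemokines and receptors with at least 50 UMIs in a library and the 3 genes most alike each member among those with at least 200 UMIs, and a few genes that this rule names are not reported here. The alternatives were other cell limits, no doublet removal, other clusterings, other scalings and another floor. RefSeq tables of GRCm38.p6 gave positions for 10 members and promoters for 5. The members and lists were chosen with earlier results of these data known.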

Additional observations from a re-analysis of the deposited data

Results flagged for a closer look

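The Ccl21a UMIs of the CCl4 library lay mostly in cells outside the comparisons. Of 245 deposited UMIs, 227 were in removed cells, compared with 4 of 1604 in the healthy library, and 124 and 102 of them lay in 2 cells marked as doublets. These cells carried 14 and 9 UMIs of Mmrn1, 7 and 2 of Prox1 and 10 and 8 of Flt4, all genes of lymphatic endothelium. Flt4 was, however, also found in 86.9% of the kept endothelial-like cells of the CCl4 library. Whether they were doublets was not tested.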

How the results depend on the processing

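Over all cells, the counts of members at least 2-fold higher and lower stayed within 1.5 times their values under every alternative that could be made. With at least 1000 UMIs per cell, 5 members were at least 2-fold higher in endothelial-like cells, and immune-like cells held 18.8% of the CCl4 member UMIs. That share was 20.6% without doublet removal and 19.1% with 10 principal components, where the healthy share was 29.9%. In endothelial-like cells 0 members were lower without doublet removal and 2 with every cell weighing the same. In mesothelial-like cells 2 members were higher when counts under 10 were raised to 10. The cause of these shifts was not tested, except that the last follows from the higher floor. With 10 principal components the endothelial-like comparison could not be made, since too few CCl4 cells were named. Of the values for single members under the alternatives, 38 moved beyond their counting interval and 183 did not, and 0 of those at least 2-fold apart changed direction. The log2 ratio of Ccl21a ranged from -7.65 to -3.68 over all cells and from -8.43 to -0.50 in endothelial-like cells. Over all cells it ranged from -0.02 to 1.39 for Ccl9, 3.61 to 5.86 for Ccl3, 4.16 to 6.18 for Ccl4, 2.20 to 4.27 for Ccl5 and 1.66 to 3.30 for Ccl6, each highest with every cell weighing the same. The Serpinb2 and Enpp2 cluster had 643 of its cells named mesothelial-like with at least 1000 UMIs per cell and 576 with a mitochondrial limit of 10%, so its name depends on these limits. No paired analysis was possible because each group had 1 library and no result came from a test. Depth limits genes such as Ccl11 (64 UMIs) and classes such as the 17 healthy immune-like cells.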
